A study of Homo sapiens with 5 samples.

Results

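The genes described here are the histone cluster genes, taken as every row whose symbol starts with HIST1H to HIST4H. Of the 19716 genes with a read in any of 5 RNA libraries from HEK293T cells, 55 were histone cluster genes, with reads on 41 of them in the DNMT1 fusion library, 43 in the DNMT3A fusion library, 41 in the DNMT3B fusion library, 43 in the EGFP fusion library and 48 in the pUC19 library. HEK293T is a human embryonic kidney line that expresses the SV40 large T antigen. In 4 groups the cells were given 5 sgRNAs that target the uPA promoter (uPA is urokinase, gene PLAU) and a plasmid for dCas9, a Cas9 without nuclease activity, fused to a blue fluorescent protein (BFP) and to 1 partner: the catalytic domain of DNMT1, of DNMT3A or of DNMT3B, which are DNA methyltransferases, or EGFP, which has no such activity. In the paper, methylation of the uPA promoter rose with the DNMT3A and DNMT3B fusions but not with the DNMT1 or EGFP fusions. The control group received pUC19, a plasmid without dCas9 or sgRNA. All groups were given 1 ug of plasmid with X-tremeGENE 9 and were collected after 48 h. BFP-positive cells were sorted according to the labels, although pUC19 encodes no BFP. The RNA was selected with oligo(dT) beads, which hold RNA that ends in a poly(A) tail. With 1 library per group nothing below could be checked in replicates, and every test between a pair of libraries compares those libraries and not the conditions.

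Histone cluster genes encode the linker histone H1 and the core histones H2A, H2B, H3 and H4, around which DNA is wound in nucleosomes. Most of them are transcribed in S phase, when new chromatin is built, and their mRNAs are the main class of metazoan mRNA without a poly(A) tail. The mRNA ends instead at a short stem-loop, which is bound by the stem-loop binding protein SLBP and cut by a complex that holds the U7 small nuclear RNA. Some histone cluster genes also give longer transcripts that run past the stem-loop and are polyadenylated, mainly in cells that no longer divide. An oligo(dT) library therefore records only that part of a histone gene's RNA that carries a tail or an internal run of A, and the values below are levels in such RNA and not the total amount of histone mRNA.

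A stem-loop was found within 200 bases after the stop codon in 50 of the 51 members with an annotated stop codon (98.0%), and in 19 of 19997 other coding genes (0.095%). Of those 19 genes, 16 have a histone symbol. The stem-loop began between 22 and 62 bases after the stop codon, with a median of 36. It came in 9 versions of 16 bases, and 1 version was carried by 30 members. The sites below were read from GRCh37, the build of the files, and are those of the members on which the results turn. Capitals mark the stem-loop and lower case the 5 bases on either side. All are written 5′ to 3′ on the gene's strand.
HIST1H2BK: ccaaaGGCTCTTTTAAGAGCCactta
HIST1H4C: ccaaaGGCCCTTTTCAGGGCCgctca
HIST1H1C: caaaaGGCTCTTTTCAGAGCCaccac
HIST1H1E: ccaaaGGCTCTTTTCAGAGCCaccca
HIST1H2AG: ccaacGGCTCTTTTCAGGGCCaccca
HIST1H2BJ: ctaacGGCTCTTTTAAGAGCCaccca
HIST2H2BE: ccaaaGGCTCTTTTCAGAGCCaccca
These sites lie in the 3′ untranslated region at chr6:27114140-27114165 (HIST1H2BK, minus strand), chr6:26104540-26104565 (HIST1H4C, plus), chr6:26055967-26055992 (HIST1H1C, minus), chr6:26157318-26157343 (HIST1H1E, plus), chr6:27101289-27101314 (HIST1H2AG, plus), chr6:27100095-27100120 (HIST1H2BJ, minus) and chr1:149857733-149857758 (HIST2H2BE, minus). The version of HIST1H4C was shared by 7 of the 9 H4 members with a site, and by no member of another type. The version of HIST1H1C, HIST1H1E and HIST2H2BE was the one carried by 30 members. HIST1H2BK and HIST1H2BJ had the same stem-loop, as did 7 members in all. The version of HIST1H2AG was found in that member alone.

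The deposited length of each row was set against the length of the GENCODE transcript up to the end of the stem-loop. The start of the deposited rows is not given, so that this compares lengths and does not locate the end of a row. For 43 members the row was shorter than that length or at most 10 bases longer, and these are called rows of stem-loop length. In 2 of them, HIST1H2BN and HIST2H2AC, the row was too short to reach from the annotated start to the stop codon, so that the starts must differ there. For 3 members the row was much longer, HIST1H2BK by 373 bases, HIST1H3D by 423 and HIST2H2BE by 1728. HIST1H2BD was counted with these longer rows, but its transcript has 2 exons and the stem-loop lies outside them. In HIST2H2BE, if the row starts where the transcript does, a poly(A) signal (AATAAA or ATTAAA) stood 17 bases before its end. HIST2H2BF was searched in only 1 of its 5 transcripts, which has 2 exons, and no stem-loop was found there. In 3 members (HIST1H2AC, HIST1H2AE and HIST1H2AH) the row was longer by 25 to 52 bases and was taken as uncertain. The other 4 rows had no annotated stop codon: HIST2H2BC and HIST2H2BA are pseudogenes, and HIST1H2BF and HIST1H4B had no GENCODE transcript. A poly(A) signal was present within 1000 bases after the stem-loop in 72% of the 50 members with a stem-loop, searched on the gene's strand, and within 1000 bases after the stop codon in 73.6% of other coding genes. The presence of these letters does not show that they are used.

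The libraries held 26250000 to 36140000 reads (rounded to 10000), so that 3 reads, taken as a floor, were 0.083 to 0.114 reads per 1000000. Where a library had 0 reads, the floor was put in its place. A fold against the floor leaves out the counting error of the other library and is not a lower bound. PLAU, the targeted gene, had 1 to 6 reads in each fusion library and 106 in pUC19, and each methyltransferase was highest in the library of its fusion. All 4 markers of HEK293 cells were present, and the 4 markers of leukocytes, hepatocytes, muscle and fibroblasts summed to at most 1.4 TPM (reads per length, scaled to a fixed sum per library) in any library. The pUC19 library stood apart in 2 of the HEK293 markers: IRS4 had 395.9 TPM there against 66.3 to 76.5 TPM in the fusion libraries, and NEFM 193.0 against 34.3 to 60.2 TPM. Every comparison with pUC19 below was made with this 1 library.

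Histone cluster genes were a small part of each library, and 1 gene made up about as much of it as all others. Their summed level was 245.0 TPM in the DNMT1 fusion library, 268.3 in the DNMT3A fusion library, 207.8 in the DNMT3B fusion library, 207.9 in the EGFP fusion library and 281.0 in pUC19, with counting errors of 5.28 to 6.04 TPM (SE from the sampling of reads). These sums came from 2080, 2220, 1650, 1664 and 3148 reads. The sum was thus highest in pUC19 and lowest in the DNMT3B and EGFP fusion libraries, which had the same level within counting error. The log2 ratio to pUC19 was -0.43 for both DNMT3B (95% counting interval -0.53 to -0.34) and EGFP (-0.53 to -0.34), -0.20 for DNMT1 (-0.28 to -0.11) and -0.067 for DNMT3A (-0.15 to 0.016). For comparison, 16 replication-independent histone genes, whose mRNAs are polyadenylated, together had 2133 to 2755 TPM. A lower value can mean fewer cells with the RNA or less of it per cell, which bulk libraries cannot tell apart.

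HIST1H2BK (gene 85236, now H2BC12) encodes an H2B and was the highest member in every library. It had 119.0 TPM in the DNMT1, 102.6 in the DNMT3A, 107.1 in the DNMT3B and 107.0 in the EGFP fusion library and 123.3 in pUC19, which was 38.3% to 51.5% of all histone TPM. Its log2 ratios to pUC19 lay between -0.26 and -0.052. Its row, which is longer than the transcript up to the stem-loop, was covered over 98.0% to 99.7% of its length. A near-identical copy (H2BC12L, 98.9% identity) exists, so that reads that fit both are not in this count. Without HIST1H2BK the summed level was 126.0, 165.7, 100.7, 100.9 and 157.7 TPM for DNMT1, DNMT3A, DNMT3B, EGFP and pUC19. DNMT3A and pUC19 (log2 ratio 0.071) then did not differ beyond their counting errors of 5.21 and 4.35 TPM, and the DNMT3B and EGFP fusions lay further below it (-0.65 and -0.64).

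**Figure D1:**
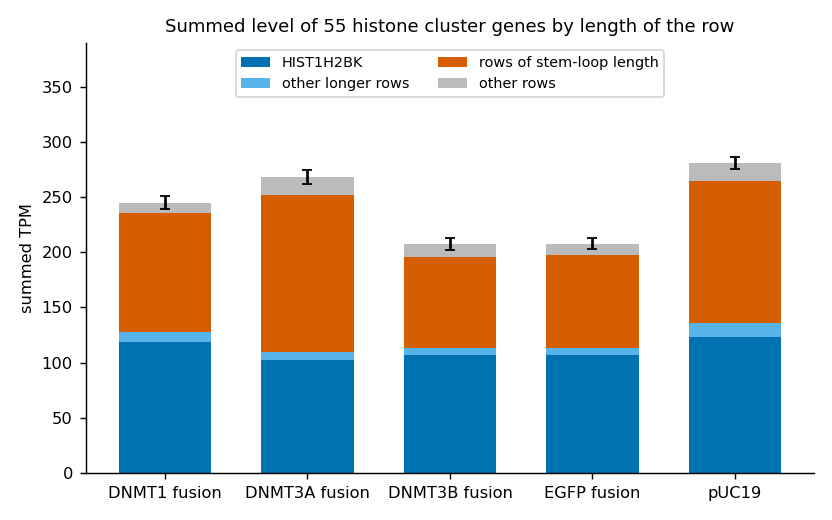
Summed TPM of the 55 histone cluster genes in each library, stacked by the length of the row, with 1 counting SE on the whole bar. HIST1H2BK takes 102.6 to 123.3 TPM in each library, and rows of stem-loop length range from 82.5 TPM (DNMT3B fusion) to 142.0 TPM (DNMT3A fusion).

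Rows of stem-loop length held most of the TPM outside HIST1H2BK. These 43 members summed to 108.1 TPM in the DNMT1, 142.0 in the DNMT3A, 82.5 in the DNMT3B and 83.7 in the EGFP fusion library and 128.8 in pUC19, with counting errors of 3.93 to 4.92 TPM. The DNMT3A fusion library was no longer above pUC19 when HIST1H4C was left out: the sums were then 75.2, 95.1, 61.8 and 66.9 TPM in the fusion libraries and 117.2 TPM in pUC19. The 3 longer rows other than HIST1H2BK summed to 8.29, 6.89, 6.51 and 6.44 TPM in the fusion libraries and to 12.2 TPM in pUC19. With HIST1H4C left out, the sums of both kinds of row were thus lower in all 4 fusion libraries than in pUC19. This held for the sums and not for each member. HIST1H1C (25.3 TPM), HIST3H2A (25.3 TPM) and HIST1H2BJ (15.8 TPM) made up much of the stem-loop sum in pUC19, and each was lower with every fusion. Other rows of stem-loop length, among them HIST1H1E, HIST1H2AG and HIST2H2AC, were higher with DNMT3A than in pUC19. The direction of the sum without the genes highest in pUC19 was not tested.

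The order of the libraries by histone type rested on 1 gene in H1, H2A and H4. The 10 H4 members summed to 37.7 TPM in the DNMT1, 55.4 in the DNMT3A, 24.8 in the DNMT3B and 21.1 in the EGFP fusion library and to 19.4 in pUC19, most of it from HIST1H4C. The other 9 H4 members summed to 4.75, 8.54, 4.09 and 4.25 TPM in the fusion libraries (DNMT1, DNMT3A, DNMT3B and EGFP) and to 7.85 TPM in pUC19, so that pUC19 was lowest with HIST1H4C (within counting error of EGFP) and near DNMT3A without it. The 5 H1 members summed to 12.7, 22.5, 16.5 and 15.7 TPM against 27.5 TPM in pUC19. Without HIST1H1C the other 4 summed to 2.81, 11.5, 3.86 and 3.28 TPM against 2.17 TPM, and pUC19 went from highest to lowest, within counting error of DNMT1. For the 13 H2A members the sums were 35.0, 38.7, 25.5 and 23.5 TPM against 44.5 TPM in pUC19, and without HIST3H2A they were 17.9, 27.2, 15.6 and 12.96 against 19.2 TPM, where DNMT3A was highest. The 15 H2B members other than HIST1H2BK summed to 32.3, 40.0, 27.7 and 31.5 TPM against 56 TPM. H2B was highest in pUC19 also without HIST1H2BJ (23.4 to 32.3 TPM in the fusion libraries against 40.3 TPM). Among the fusions, DNMT3A had the highest sum in H1, H2A and H4, with and without these genes. In H1 this rested on HIST1H1E. For H2B DNMT3A was highest only without HIST1H2BK, and also without HIST1H2BJ. With HIST1H2BK the H2B sum was 151.3 TPM with DNMT1 and 142.6 with DNMT3A, with counting errors of 3.98 and 3.88 TPM. DNMT3A lay within counting error of DNMT1 in H2A with HIST3H2A and in H2B without HIST1H2BJ. The 11 H3 members had only 34 to 79 reads per library and 6.31 to 10.3 TPM, with counting errors of 1.09 to 1.30 TPM. DNMT3B (6.31 TPM) lay below pUC19 (10.3 TPM) beyond counting error, and no other order could be read from them. Without HIST1H3H these sums were 4.99 and 6.59 TPM, with counting errors of 0.965 and 0.929 TPM, and were no longer apart.

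**Figure D2:**
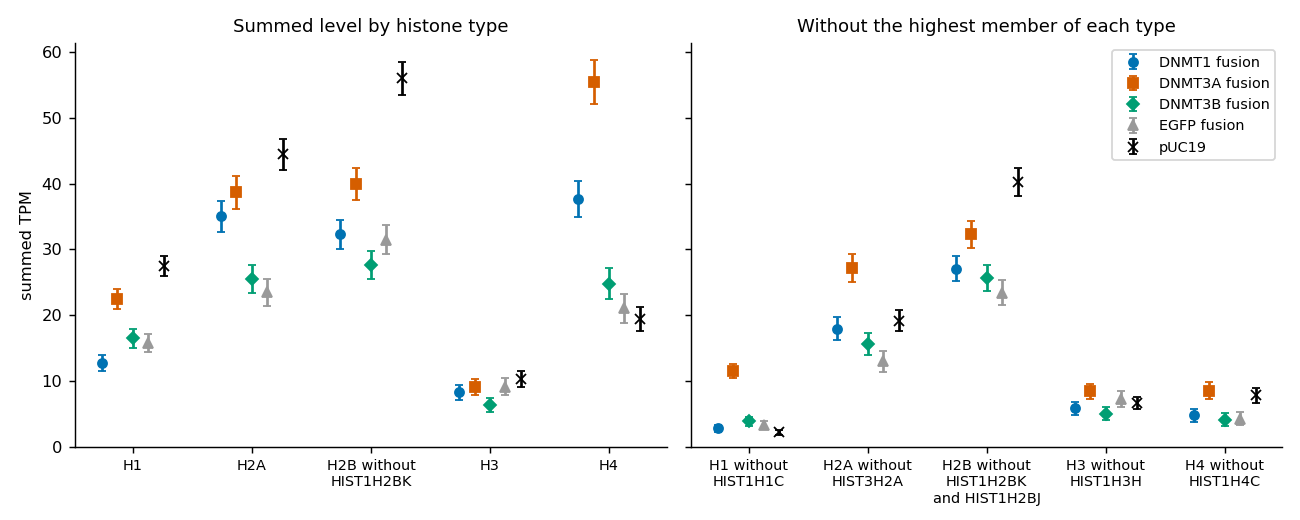
Summed TPM of the members of each histone type in the 5 libraries, with 1 counting SE; HIST1H2BK is left out of H2B in both panels, and the right panel also leaves out the highest remaining member of each type. Without HIST1H4C the H4 sum in pUC19 is 7.85 TPM, near DNMT3A (8.54 TPM), and without HIST1H1C the H1 sum is lowest in pUC19 (2.17 TPM).

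By cluster, the 44 members of HIST1 on chromosome 6 held 83.7% to 89.1% of the histone TPM. The 7 members of HIST2 on chromosome 1 summed to 10.9 to 20.1 TPM, with the highest value in the DNMT3A fusion library. The 3 members of HIST3, also on chromosome 1, summed to 18, 12.6, 10.6 and 11.1 TPM in the fusion libraries and to 29.3 TPM in pUC19, most of it from HIST3H2A. HIST4H4 on chromosome 12 had 1 to 5 reads per library.

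Levels of single members spread widely below HIST1H2BK. Mean TPM was at least 5 in 7 members and below 1 in 26. Reads were present in all 5 libraries for 33 members and in a single library for 9. Members below 1 TPM had at most 15 reads in a library. A further 18 coding histone genes of the RefSeq table were not analysed here. Some of them, such as HIST2H2AA3 and HIST2H2AA4 or HIST2H4A and HIST2H4B, are identical pairs, whose reads are not unique.

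**Figure D3:**
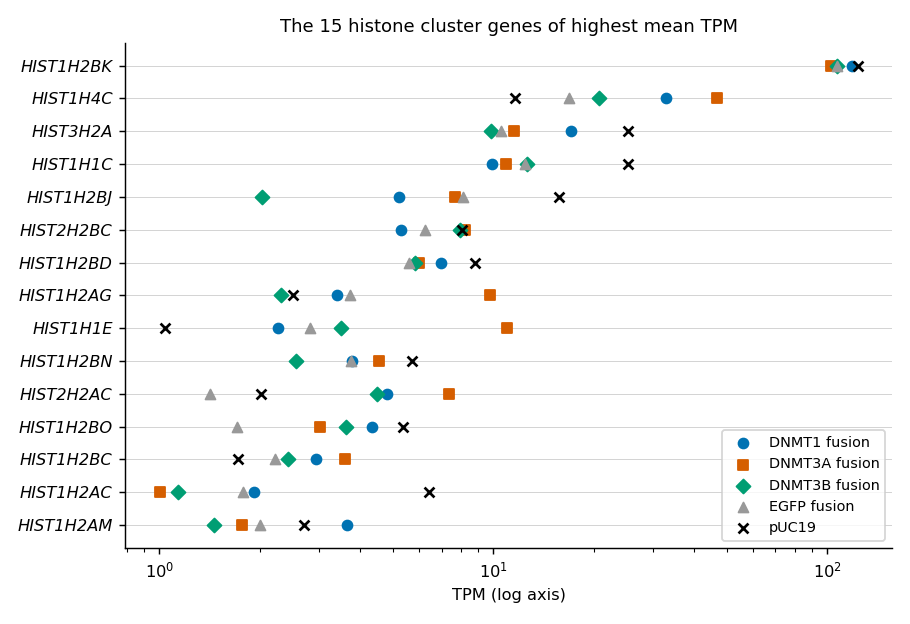
TPM of the 15 histone cluster genes of highest mean TPM in each library, on a log axis. HIST1H2BK lies near 100 TPM in every library, HIST1H1C, HIST3H2A, HIST1H2BJ and HIST1H2AC are highest in pUC19, and HIST1H4C, HIST1H1E, HIST1H2AG and HIST2H2AC are highest in the DNMT3A fusion library.

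The next question was which members differed between each fusion and pUC19. A gene was called where a two-sided exact test on its reads had an adjusted p of at most 0.001 and the TPM (plus 0.1) differed by at least 2-fold. With the DNMT1 fusion 1 of 50 members with a read was called higher and 4 lower, beside 1.61% and 3.67% of all genes tested. With DNMT3A 6 of 52 were called higher and 7 lower (all genes 4.44% and 5.01%). With DNMT3B 1 of 50 was higher and 4 lower (4.51% and 4.37%), and with EGFP 0 of 53 were higher and 5 lower (2.65% and 3.13%). The shares of members called lower were 8%, 13.5%, 8% and 9.43%, each above that of all genes. The 4 comparisons share the pUC19 library and are not independent of each other.

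HIST2H2BE and HIST1H2AC were called lower in all 4 fusion libraries. HIST2H2BE (H2BC21, chr1:149856009-149858232, 1 exon), an H2B gene, had 27, 13, 15 and 19 reads with DNMT1, DNMT3A, DNMT3B and EGFP and 112 with pUC19. Its level was 0.98, 0.46, 0.60 and 0.76 TPM against 3.16 TPM. The log2 ratios were -1.59, -2.54, -2.22 and -1.93, with adjusted p of 1.18e-08, 3.7e-16, 1.56e-13 and 6.34e-11 (exact test). The covered part of its row was 91.1% in pUC19 and 31.5% to 67.5% in the fusion libraries. HIST1H2AC (H2AC6, chr6:26124400-26124918), an H2A gene, had 13, 7, 7 and 11 reads against 56 in pUC19, or 1.92, 1.01, 1.14 and 1.78 against 6.43 TPM. Its log2 ratios were -1.69, -2.56, -2.40 and -1.79, with adjusted p of 7.08e-05, 3.58e-08, 1.69e-07 and 2.8e-05 (exact test).

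HIST1H1C, HIST3H2A and HIST1H2BJ were likewise highest in pUC19. HIST1H1C encodes the linker histone H1.2 and had 90, 102, 104 and 103 reads in the fusion libraries, in the same order, against 295 in pUC19. At 9.93, 10.9, 12.6 and 12.5 TPM the fusion libraries were alike, and pUC19 had 25.3 TPM. It was called lower with DNMT1, DNMT3A and EGFP, and with DNMT3B the log2 ratio of -0.997 was just short of 2-fold at an adjusted p of 1.31e-11 (exact test). The EGFP call (log2 ratio -1.01) was lost with a pseudocount of 1 TPM (-0.965) and with TMM scaling (-0.989). HIST3H2A, an H2A gene of the HIST3 cluster, had 17.1, 11.6, 9.85 and 10.5 TPM against 25.3 TPM, and was called lower with DNMT3A, DNMT3B and EGFP but not with DNMT1 (log2 ratio -0.56, adjusted p 0.00333, exact test). HIST1H2BJ, an H2B gene, had 5.21, 7.67, 2.03 and 8.10 TPM against 15.8 TPM. It was called lower with DNMT1, DNMT3A and DNMT3B, and its log2 ratio with EGFP was -0.95 (adjusted p 0.000135, exact test). The DNMT3A call (log2 ratio -1.03) was lost with a pseudocount of 1 TPM (-0.952), with TMM scaling (-0.984) and when the libraries were thinned to the smallest total (-0.897). These genes were grouped because pUC19 was highest, so that the place of pUC19 above the fusion libraries was given by the choice. Of the 29 members of mean TPM at least 1, 12 were highest in pUC19, beside 32.7% of 13921 genes.

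HIST1H4C, HIST1H1E and HIST2H2AC were higher in some fusion libraries. HIST1H4C (H4C3, chr6:26104161-26104565, 1 exon) encodes histone H4 and was the second highest member, with 159, 233, 91 and 74 reads in the fusion libraries and 72 in pUC19. Per length this was 32.9, 46.9, 20.7 and 16.8 TPM against 11.6 TPM, so that all fusion libraries lay above pUC19. It was called higher with DNMT1 (log2 ratio 1.5, adjusted p 5.4e-14) and DNMT3A (2.01, 3.67e-28), and not with DNMT3B (0.83, 0.0023) or EGFP (0.53, 0.0652, all exact test). HIST1H1E encodes the linker histone H1.4 and had 22, 110, 31 and 25 reads against 13 in pUC19, or 2.26, 11, 3.51 and 2.82 against 1.04 TPM. It was called higher with DNMT3A (log2 ratio 3.29, adjusted p 2.03e-24) and DNMT3B (1.66, 0.000731, exact test), and the DNMT3B call was lost when the libraries were thinned to the smallest total. HIST2H2AC, an H2A gene of the HIST2 cluster, had 26, 41, 22 and 7 reads against 14, and was called higher with DNMT3A alone (log2 ratio 1.82, adjusted p 2.29e-05, exact test).

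The remaining calls against pUC19 concerned few reads, and these members are named because they were called, after their values were seen. With DNMT3A, HIST2H2BF was higher (40 against 17 reads, log2 ratio 1.47), as was HIST1H2AG (62 against 20 reads, 1.92). HIST1H3A had 15 reads with DNMT3A and 0 in pUC19, which makes it 6.14-fold higher against the floor of 3 reads. The 95% counting intervals were 0.285 to 0.841 and 0 to 0.102 reads per 1000000. The calls of HIST2H2BF and HIST1H3A were lost when the libraries were thinned. HIST1H3H fell from 28 to 4 reads (log2 ratio -2.32). HIST1H4H had 0 reads with DNMT3A and 13 in pUC19, 3.53-fold lower against the floor. The 95% counting intervals were 0 to 0.125 and 0.192 to 0.615 reads per 1000000. Its call was lost when the libraries were thinned and with TMM scaling. HIST3H2BB had 2 reads with EGFP and 24 in pUC19, a ratio of 0.115 per 1000000 reads (95% counting interval 0.0131 to 0.462). This call was also lost when the libraries were thinned. HIST1H4H thus moved against the other H4 gene called, HIST1H4C, but on few reads and with a call that depended on the processing.

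The linker histone genes HIST1H1C and HIST1H1E are near each other in length and could be set against each other within a library. This pair was chosen after its values were seen, and the ratio is given as a description. HIST1H1C had 24.3 times the reads per base of HIST1H1E in pUC19 (95% exact counting interval 14.0 to 46.2). The ratio was 4.39 (2.73 to 7.35) with DNMT1, 3.6 (2.39 to 5.56) with DNMT3B and 4.42 (2.83 to 7.14) with EGFP, and 0.994 (0.752 to 1.31) with DNMT3A. The DNMT1, DNMT3B and EGFP fusions overlapped, with pUC19 above and DNMT3A below all of them.

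**Figure D4:**
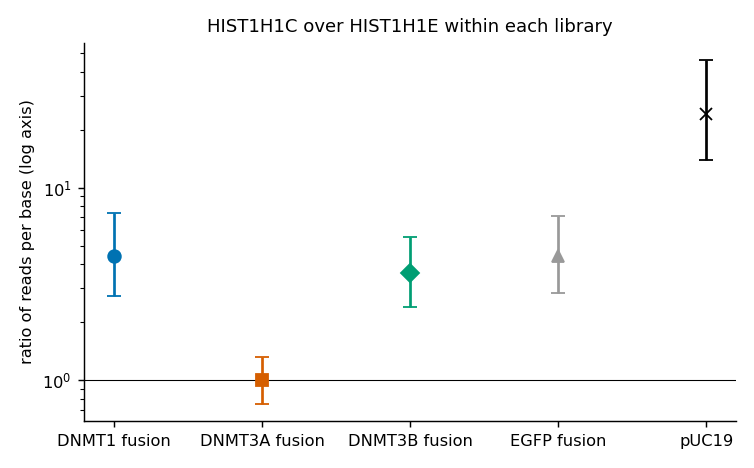
Ratio of HIST1H1C to HIST1H1E in reads per base within each library, on a log axis, with 95% exact counting intervals; the line marks equal levels. The ratio is 24.3 in pUC19, 3.6 to 4.42 with DNMT1, DNMT3B and EGFP, and 0.994 with DNMT3A.

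The libraries of the de novo methyltransferases DNMT3A and DNMT3B were compared directly, since both enzymes methylate DNA de novo and the same sgRNAs were used. These libraries were close over all genes: 0.134% of the 18625 genes tested were called higher with DNMT3A and 0.107% lower. Among the 46 members with a read in either library, 7 (15.2%) were called higher with DNMT3A and 0 lower. The 25 genes called higher thus held 7 histone cluster genes. Of the other 18, DNMT3A itself was 1, RN7SK and SNORA12 (RNAs without a poly(A) tail) were 2, and H3F3A, a replication-independent H3 gene, was another. Of the 25 members with a mean of at least 1 TPM in the 3 other libraries, 15 (60%) had more TPM with DNMT3A, beside 46.6% of 13978 genes chosen in the same way. The median log2 ratio of these 25 was 0.23, beside -0.016 over those 13978 genes.

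The 7 members were of all histone types. HIST1H4C had 233 reads with DNMT3A and 91 with DNMT3B, a log2 ratio of 1.18 (adjusted p 1.25e-11, exact test). HIST1H1E had 110 against 31 reads (log2 ratio 1.62, adjusted p 6.92e-09, exact test), and HIST1H2AG, an H2A gene, had 62 against 13 reads (2.03, 6.42e-07). HIST1H2BJ had 47 against 11 reads (1.87, 7.67e-05, exact test), and here the DNMT3B fusion library stood apart, since DNMT3A (7.67 TPM) lay below EGFP (8.10 TPM) and pUC19 (15.8 TPM). The other 3 had few reads in the DNMT3B fusion library. HIST2H2BF, the H2B gene without a stem-loop in the transcript searched, had 40 against 3 reads, a ratio of 12.3 per 1000000 reads (95% counting interval 3.92 to 62.2). HIST1H3A, an H3 gene, had 15 against 0 and HIST1H4J, an H4 gene with a near-identical copy, had 14 against 0. Against the floor of 3 reads these were 4.61-fold and 4.31-fold higher. Their 95% counting intervals began at 0.285 and 0.26 reads per 1000000 with DNMT3A and ended at 0.136 with DNMT3B. The HIST1H3A call was lost when the libraries were thinned, and the HIST1H4J call with TMM scaling. Rows of stem-loop length made up 6 of the 7, as they did 43 of the 55 members.

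**Figure D5:**
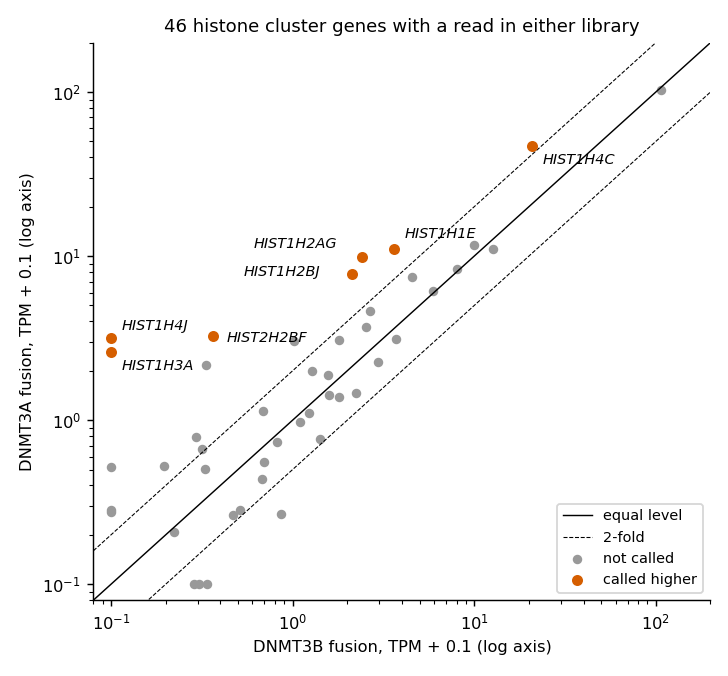
TPM plus 0.1 of the 46 histone cluster genes with a read in the DNMT3A or DNMT3B fusion library, on log axes, with lines of equal level and of 2-fold difference. The 7 genes called higher with DNMT3A are named, and no gene is called lower.

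The DNMT3A fusion library also had the highest summed histone level among the fusions in TPM (268.3 against 245.0 TPM with DNMT1). In reads per 1000000 the DNMT3A and DNMT1 fusion libraries did not differ. Their sums were 75.42 (95% counting interval 72.35 to 78.63) and 75.04 (71.88 to 78.33). Against DNMT1, 3 of 46 members were called higher and 0 lower (HIST1H1E, HIST1H2AG and HIST2H2BF), beside 2.6% of all genes called higher and 1.02% lower. Against EGFP, 4 of 47 were called higher and 0 lower (HIST1H1E, HIST1H2AG, HIST1H4C and HIST2H2AC), beside 2.06% and 2.03% of all genes. For DNMT3B, 0 of 46 members were called against DNMT1 (all genes 2.7% higher and 0.895% lower). Against EGFP, 0 of 47 were called higher with DNMT3B and 1 lower, HIST1H2BJ (log2 ratio -1.94, adjusted p 1.54e-05, exact test), beside 2.11% and 1.51% of all genes. HIST1H1E and HIST1H2AG were thus higher with DNMT3A than in each of the other 4 libraries, and the values of HIST1H2AG in those libraries (2.32 to 3.73 TPM) were close together. Between the DNMT1 and EGFP fusions, 0 of 47 members were called in either direction, beside 0.483% of all genes higher and 0.993% lower. HIST1H4C, with 159 against 74 reads there, was just short of 2-fold (log2 ratio 0.97, adjusted p 1.36e-06, exact test), and HIST2H2AC had 26 against 7 reads (1.69, 0.00471). These comparisons reuse the same libraries.

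An assumed spread between libraries removed these calls. With a biological coefficient of variation of 0.2 in place of read sampling alone, 0 members were called between DNMT3A and DNMT3B, and 3 genes in all. Under the same assumption, 2 members were called between DNMT3A and pUC19 (HIST1H1E and HIST2H2BE) and 1 between DNMT3B and pUC19 (HIST1H2BJ). Other RNAs without a poly(A) tail also differed between these libraries: the 241 such rows, small nucleolar RNAs and the like, summed to 599.4 TPM with DNMT1, 513.6 with DNMT3A, 425.8 with DNMT3B, 676.3 with EGFP and 708.8 with pUC19. In reads per 1000000 this was 56.1, 45.8, 33.0, 46.6 and 46.2. DNMT3A was above DNMT3B in this sum too, through a few abundant RNAs such as RN7SL1 (348 against 191 reads), RN7SL2 (205 against 107) and RN7SK (128 against 44), while the median log2 ratio over the 173 such rows with a read in either library was -0.15. The part of these RNAs in the histone values was not tested. The 858 other genes with rows under 1000 bases and at least 1 mean TPM in the 3 libraries outside the pair had a median log2 ratio of 0.056 between DNMT3A and DNMT3B, and the 24 members among such rows 0.25.

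Fits across libraries called no member. In edgeR, 0 of 29 members passed for the 4 fusions against pUC19, beside 0.0937% of all genes higher and 0.644% lower. At an unadjusted p under 0.05 there were 8 of 29 members, beside 18% of all genes, and DESeq2 called 2 of 13 it gave an adjusted p (HIST1H1C and HIST2H2BE, both lower). HIST2H2BE had the smallest adjusted p in edgeR (log2 fold change -2.11, adjusted p 0.0739), followed by HIST1H1C (-1.09, 0.0924). HIST1H2BK had a log2 fold change of -0.12 (adjusted p 0.797). The median over the 29 members was -0.16, and over all genes 0.031. When the DNMT3A and DNMT3B fusions were set against the DNMT1 and EGFP fusions, edgeR called 0 of 20 members, beside 6.9% of all genes higher and 4.15% lower. At an unadjusted p under 0.05 there was 1 of 20 members, beside 28.8% of all genes, and DESeq2 called 0 of 5. HIST1H1E came nearest (log2 fold change 1.47, adjusted p 0.0974), with 110 reads in the DNMT3A and 31 in the DNMT3B fusion library, so that this group's own libraries differed by over 2-fold in reads.

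Genes around histone synthesis were examined as lists. Of 20 genes for transcription and 3′ processing of histone mRNA, 0 were called between DNMT3A and DNMT3B (all genes 0.134% and 0.107%). In the edgeR fit of both against DNMT1 and EGFP 3 of 20 were higher and 0 lower, beside 6.9% and 4.15% of all genes. These were SLBP, which binds the stem-loop (log2 fold change 0.51, adjusted p 0.0368), ZNF473, which binds the U7 particle (0.91, 0.00601), and SRRT, which links the cap to 3′ ends (0.49, 0.0321). SLBP had 122.7, 208.8, 176.5 and 137.9 TPM in the fusion libraries and 150.3 in pUC19, and was highest with DNMT3A. NPAT, the coactivator of histone gene transcription, had 10.5, 16.8, 14.2 and 13.9 TPM against 17.9 TPM and was not called (log2 fold change 0.30, adjusted p 0.247). Against pUC19 the same list had 0 calls in edgeR, 4 genes at an unadjusted p under 0.05 and 2 calls in DESeq2. The exact test called 0 of 20 with DNMT1, and 1 higher and 0 lower with each of DNMT3A, DNMT3B and EGFP (all genes higher 4.44%, 4.51% and 2.65%).

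Of 27 S phase genes, 8 were higher with DNMT3A and DNMT3B than with DNMT1 and EGFP, beside 6.9% of all genes. Against pUC19, 0 were called (4 at an unadjusted p under 0.05, 2 by DESeq2), beside 0.0937% of all genes higher and 0.644% lower. All counts are from edgeR unless named. Those higher were the replication genes PCNA, FEN1, CDC6, CHAF1A and CHAF1B, the uracil glycosylase UNG, cyclin E2 (CCNE2) and SLBP, with log2 fold changes of 0.42 (PCNA) to 0.89 (FEN1). UNG, for example, had 78.4, 159.6, 163.9 and 92.6 TPM in the fusion libraries and 99.1 in pUC19 (log2 fold change 0.87, adjusted p 0.00559). FEN1 had 118.9, 292.2, 259.8 and 169.9 TPM against 134.2 TPM (0.89, 0.00936). Both were about as high with DNMT3B as with DNMT3A. The exact test against pUC19 called 1 of 27 S phase genes lower with DNMT1, 1 higher and 1 lower with DNMT3A, 0 with DNMT3B and 1 lower with EGFP. The shares of all genes called lower were 3.67% with DNMT1, 5.01% with DNMT3A and 3.13% with EGFP, and 4.44% were called higher with DNMT3A.

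Of the replication-independent histone genes, edgeR called 0 of 13 against pUC19, with 2 at an unadjusted p under 0.05 and 1 called by DESeq2. The exact test against pUC19 called 1 of 16 higher with DNMT1 and 2 of 15 higher and 1 lower with DNMT3A. With DNMT3B it called 1 of 14 lower, and with EGFP 0 of 14. The shares of all genes were 1.61% higher with DNMT1, 4.44% higher and 5.01% lower with DNMT3A and 4.37% lower with DNMT3B. With DNMT3A and DNMT3B, 3 of 13 were lower in edgeR than with DNMT1 and EGFP, beside 4.15% of all genes. These were H2AFX, the H2A variant phosphorylated at DNA breaks (log2 fold change -0.85, adjusted p 0.0207), H2AFV (-0.53, 0.0448) and H1F0, the linker histone of resting cells (-0.57, 0.0288). H2AFZ, the highest of the list, had 753.5, 754.2, 772.2 and 992.7 TPM in the fusion libraries and 897.0 in pUC19. H2AFX, which also has a form that ends at a stem-loop, had 81.6, 48.3, 38.2 and 68.1 TPM against 135.5 TPM, and so was highest in pUC19, as was the sum of the H2A members. Of 14 genes for poly(A) polymerases and 3′ end decay, edgeR called 0 in either fit, with 0 against pUC19 and 5 with DNMT3A and DNMT3B at an unadjusted p under 0.05, and DESeq2 called 0 and 2. The exact test against pUC19 called 1 of 14 higher with DNMT3A, 1 higher with DNMT3B, 1 lower with EGFP and 0 with DNMT1. The shares of all genes were 4.44% and 4.51% higher and 3.13% lower. Of RNAs without a poly(A) tail, edgeR called 0 of 40 against pUC19 (2 at an unadjusted p under 0.05, 0 by DESeq2). The exact test called 4 of 206 higher and 2 lower with DNMT1 and 4 of 200 higher and 4 lower with DNMT3A. With DNMT3B it called 0 of 200 higher and 5 lower, and with EGFP 3 of 215 higher and 1 lower. The shares of all genes in these pairs are those given with the members. With DNMT3A and DNMT3B, 2 of 25 of them were lower in edgeR, SCARNA12 (log2 fold change -1.40, adjusted p 0.0191) and TERC (-1.80, 0.0245), beside 4.15% of all genes.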

How the data were processed

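RNA sequencing data of 5 libraries, 1 per group, were analysed, with groups taken from the sample titles. The authors aligned Ion Proton reads with tmap to RefSeq RNA of hg 19 (GRCh37) and kept unique reads, which lowers genes with near-identical copies. Read counts per gene were deposited as whole numbers, not normalized. TPM was computed by the authors from these counts and the gene lengths, scaled per library. The deposited coverage, in percent, is not defined and was taken as the covered share of each transcript. Genes without a row in a library were set to 0. Histone mRNA without a poly(A) tail is depleted by oligo(dT) selection. Strand was not stated, so overlapping genes are uncertain.

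Every pair of libraries was compared with an exact conditional binomial test of reads given both totals (Benjamini-Hochberg adjustment, all genes with reads in the pair). Calls needed a fold of at least 2 on TPM + 0.1 and an adjusted p-value no higher than 0.001, which understates the change of low genes. edgeR 4.0.16 (R 4.3.3; TMM, filterByExpr, quasi-likelihood test, adjusted p-value under 0.05) was run for the 4 fusions against pUC19 and for the pair DNMT3A and DNMT3B against the other fusions. The spread in these fits comes from different constructs. Wilson and exact intervals (95%) and SEs of sums cover counting error only, and PCR reads are not independent molecules. Positions and stem-loops are from GENCODE 44 on GRCh37, and all 55 members were matched by gene ID to the RefSeq table. Near-identical means at least 97% identity over 80% of the transcript (blastn 2.17.0), which held for 6 members. Intervals used scipy 1.17.1.

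Members and lists were chosen with earlier results of these data known. The result of 1 listed gene is not reported here. Members named are the 15 of highest mean TPM, those called in an edgeR fit and those called alike in all 4 fusions; others are said to be chosen after their values were seen, as were the 7 called between DNMT3A and DNMT3B. Rows were classed by deposited length and not, as planned, by the reference transcript, since several transcripts stop at the stem-loop and have much longer deposited rows. The limits of 20 and 100 bases, the sums without the highest member of a type and the filter of medians on the libraries outside the pair were chosen after seeing the values. Alternatives were another pseudocount, scaling, filter, threshold or tool, an assumed coefficient of variation of 0.2, thinning, a gene length trend (loess span 0.3), and leaving out each library. On simulated data with 200 changed genes the exact test recovered 199 with 0 false calls among 18969 genes, and the edgeR fits recovered 200 with 10 (4 against 1, 15802 genes) and 12 (2 against 2, 15360 genes) false calls. With a gene length trend added, the 2 against 2 fit gave 560 false calls uncorrected and 9 corrected. Only genes with many reads were changed, by large folds, and the exact test data had no spread beyond counting. These figures thus do not carry over to members with few reads or to real libraries.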

Additional observations from a re-analysis of the deposited data

Results flagged for a closer look

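The reads of 7 histone cluster genes differed between the DNMT3A and DNMT3B fusion libraries by the exact test, which compares those 2 libraries and not the fusions. The DNMT3A over DNMT3B log2 ratio was 1.62 for HIST1H1E, 1.18 for HIST1H4C, 2.03 for HIST1H2AG and 1.87 for HIST1H2BJ. HIST2H2BF was 12.3 times higher in reads per 1000000 (95% counting interval 3.92 to 62.2). HIST1H3A and HIST1H4J, without a read in the DNMT3B fusion library, were 4.61-fold and 4.31-fold higher against the floor of 3 reads, which is not a lower bound. The HIST1H3A call was lost when the libraries were thinned, and the HIST1H4J call with TMM scaling. All 7 were higher with DNMT3A, in 1 library against 1, and with a coefficient of variation of 0.2 in place of read sampling alone 0 members were called. For HIST1H2BJ it was the DNMT3B fusion library that stood apart, at 2.03 TPM against 5.21 to 15.8 TPM in the others.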

How the results depend on the processing

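The limit of all results is 1 library per group: counting error is small, and the spread between libraries of one group is not known. With a coefficient of variation of 0.2, the members called against pUC19 were 0 for DNMT1 (in place of 5), 2 for DNMT3A (in place of 13), 1 for DNMT3B (in place of 5) and 0 for EGFP (in place of 5), and 0 between DNMT3A and DNMT3B (in place of 7). At an adjusted p of at most 0.05 they were 8 with DNMT1, 13 with DNMT3B and 8 with EGFP, and 4 between DNMT1 and EGFP, where TMM scaling gave 1 (HIST1H4C) and the reported count was 0. Between DNMT3A and DNMT3B the count was 6 to 9 under the other alternatives, 6 of them without the member that has a near-identical copy, an alternative chosen after seeing the data.

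The log2 ratio of the summed level to pUC19 was, for DNMT1, -0.087 with TMM factors, -0.32 without HIST1H2BK and -0.33 without near-identical members. For DNMT3A it was -0.21 in reads per total, 0.071 without HIST1H2BK and 0.043 without near-identical members. For DNMT3B it was -0.34, -0.65 and -0.66 under the same alternatives as for DNMT1, and for EGFP -0.64 and -0.64 without HIST1H2BK and without near-identical members.

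By histone type, with the highest member left out after seeing the data, the log2 ratio to pUC19 changed sign for H1 without HIST1H1C with all 4 fusions (DNMT1 0.37 in place of -1.11, DNMT3A 2.41 in place of -0.29, DNMT3B 0.83 in place of -0.74, EGFP 0.60 in place of -0.80) and for H4 without HIST1H4C with DNMT1 (-0.72 in place of 0.96). The H1 sums without HIST1H1C were mostly HIST1H1E in the fusion libraries.

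In the fit of 4 fusions against pUC19, DESeq2 called 2 members and no filter 1 (HIST2H2BE), and leaving out each fusion in turn gave 0 to 0. In the fit of DNMT3A and DNMT3B against DNMT1 and EGFP, leaving out a library gave 0 to 1 members: HIST2H2AC without DNMT1 (log2 fold change 2.07) and HIST1H1E without EGFP (1.57). The lone library left in a group was then assumed to vary like the others. Over all genes that fit called 1058 higher and 636 lower, but 17 and 1 without DNMT3A, 41 and 12 without DNMT3B, 1995 and 1541 without DNMT1 and 2227 and 1623 without EGFP. DESeq2 called 544 and 497 genes in the first fit, edgeR 15 and 103. No paired analysis was possible because each group has 1 library.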
